A study of Mus musculus with 12 samples.

Results

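The proteasome is the protease complex that degrades proteins tagged with ubiquitin. Its members here were every probe whose gene symbol begins with Psma, Psmb, Psmc, Psmd, Psme, Psmf or Psmg followed by a digit, which gave 49 probes of 48 genes among 17589 probes on the array. The animals were 5 week old mice, and 2 kinds of mammary epithelial structure were each compared with stroma. Terminal end buds, the bulbous tips of the growing ductal tree, were measured on 6 arrays, and mature ducts on another 6. Each array set epithelial RNA in Cy5 against RNA of distal stroma, the fat pad without epithelium, in Cy3. All tissue was microdissected from mice with a GFP reporter under the beta-actin promoter, so both structures and the stroma come from reporter animals. Whether animals were pooled, or each array had its own animal, is not stated in the labels. The p-values thus cover the spread between arrays alone, which may be technical. Every value is a ratio to stroma and carries no absolute level, and probes are not compared with each other as levels.

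A core particle of stacked rings holds the protease sites inside a chamber, with alpha subunits (Psma) forming the outer rings and beta subunits (Psmb) the inner ones. A regulatory particle caps it, with a base of ATPases (Psmc) that unfold substrates and non-ATPase subunits (Psmd) of base and lid that bind ubiquitin and remove it. Dedicated chaperones assemble these parts, alternative activators (Psme) can take the place of the regulatory particle, and inducible beta subunits replace the standard protease subunits in immune cells and under interferon. In epithelium, as in other tissues, the complex serves protein turnover, cell cycle progression and the supply of peptides for antigen presentation.

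The proteasome did not move as a unit in either structure. The median log2 ratio over the 14 standard core probes was 0.01 in terminal end buds and -0.08 in ducts, and over the 17 regulatory probes -0.04 and -0.09 in the same order of structures. The medians of all 17589 probes were 0.01 and 0.02. Single subunits nevertheless lay apart from stroma in both directions, by up to 1.02 upward (Psmb8) and 0.71 downward (Psmc3ip, which is not a subunit) in terminal end buds. Ratios are treated as log2. No source used here names their base, and natural logarithms are possible, which would change every size by a constant factor.

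Against stroma, 16 of the 49 probes rose and 12 fell in terminal end buds at an adjusted p under 0.05 (limma over all probes, Benjamini-Hochberg). Over all probes 23.2% were higher and 20.4% lower, set beside 32.7% and 24.5% of the members. In either direction 57.1% of the members passed, against 43.6% of all probes. In ducts 6 members were higher and 8 lower, against a background of 16.0% higher and 12.2% lower, and against 28.2% of all probes in either direction. That is 28.6% of the members, close to the background, with 42.9% of core and 17.6% of regulatory probes. Centred on array medians, 4 members were higher and 9 lower in ducts, with no share over all probes given for that fit. Between the structures, terminal end buds exceeded ducts for 7 members and lay below them for 3, against 8.32% and 10.4% of all probes, or 20.4% of members against 18.7% of all probes in either direction. Stroma was the other channel of every array, so its variation between arrays is part of each ratio and its SE and cannot be told apart from that of the epithelium. The labels do not say whether the same stroma RNA was used throughout. The labels show no swapped dyes, and ratios with stroma can carry probe-specific dye effects. In such bulk tissue a smaller share of a cell type and less RNA per cell cannot be told apart.

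**Figure D1:**
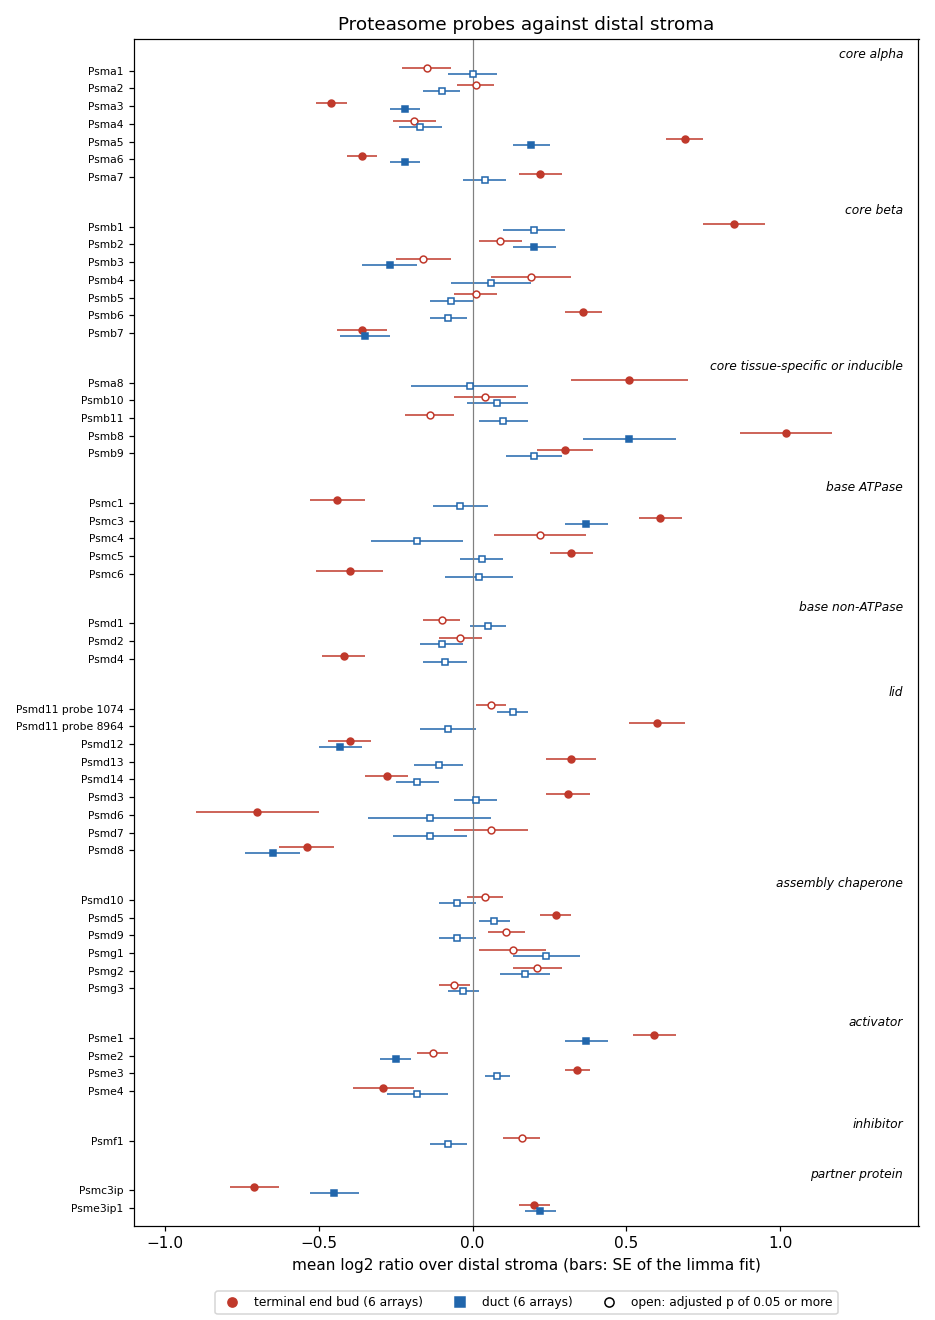
Mean log2 ratio over distal stroma of each of the 49 proteasome probes, grouped by role, for terminal end buds (red circles, above) and ducts (blue squares, below), with bars for the SE of the limma fit and open symbols where the adjusted p was 0.05 or more. Within almost every role some probes lie right of 0 and others left of it, and Psmb8 in terminal end buds is the farthest to the right at 1.02.

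The array medians show the same lack of a common shift. Over the core probes they ran from -0.13 to 0.06 on the terminal end bud arrays and from -0.17 to 0.06 on the duct arrays. Over the regulatory probes they ran from -0.22 to 0.06 and from -0.17 to 0.02 in the same order of structures. The ranges of the structures overlapped for both particles. What differed was the width: the SD over the 49 members was 0.41 to 0.53 on terminal end bud arrays and 0.22 to 0.35 on duct arrays, with no overlap. Over all probes it was also wider in terminal end buds, at 0.54 to 0.64 against 0.38 to 0.48 in ducts, so the greater width was not particular to the proteasome.

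**Figure D2:**
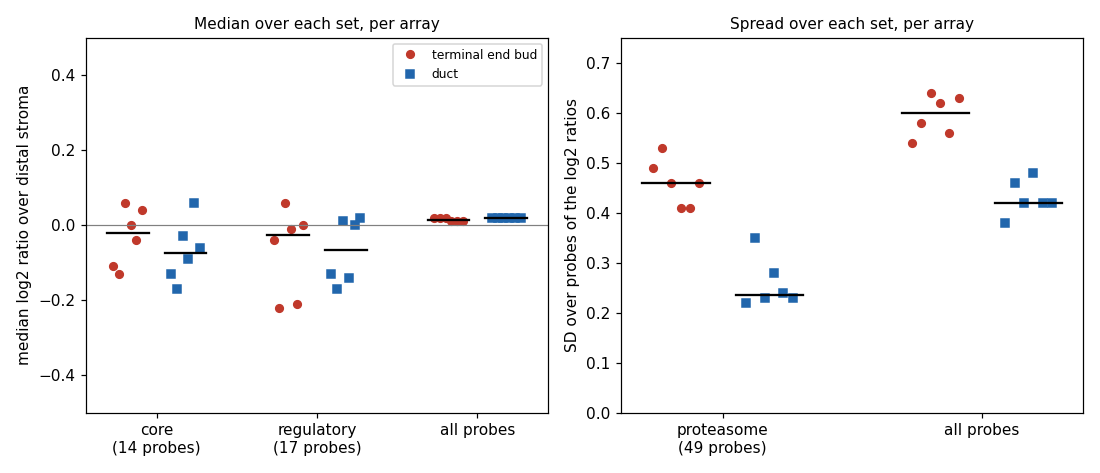
Left, median log2 ratio over distal stroma per array for core, regulatory and all probes, and right, the SD over probes per array, with terminal end buds in red, ducts in blue and black lines for the median of the 6 arrays. Medians of both particles lie within 0.22 of 0 on every array, and the spread is larger on terminal end bud arrays for proteasome and all probes alike.

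Epithelial, adipocyte and endothelial markers fit the tissue labels, while fibroblast markers were not lower than in stroma. All 6 luminal and all 4 basal epithelial markers were higher than in stroma in both structures, with Krt8 at 6.16 in terminal end buds and 4.96 in ducts. All 5 measured adipocyte markers were lower in terminal end buds and 2 of them in ducts. All 3 endothelial markers were lower in both. So were all 3 brown adipocyte markers, with Ucp1 at -3.54 in terminal end buds and -1.82 in ducts. Of 4 fibroblast markers, 1 was higher in terminal end buds and 3 were higher in ducts, and 0 were lower in either. All 5 proliferation markers were higher in terminal end buds and 3 in ducts. Of the 49 members, 10 lay more than 0.5 from stroma in terminal end buds and 2 in ducts, against 3632 and 1682 of all 17589 probes. The part of the cell makeup in the proteasome ratios was not tested.

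Among the alpha subunits of the core, which form the gate to the chamber, Psma5 and Psma7 rose in terminal end buds and Psma3 and Psma6 fell. Psma5 had a lowest, median and highest log2 ratio of 0.49, 0.74 and 0.85 on terminal end bud arrays and of 0.04, 0.14 and 0.41 on duct arrays. All arrays of both structures were above stroma, and the lowest terminal end bud array was above the highest duct array. Its mean ratio was 0.69 (SE 0.06, adjusted p = 4.56e-07) in terminal end buds and 0.19 (SE 0.06, adjusted p = 0.036) in ducts. The difference of 0.51 (SE 0.09, adjusted p = 0.00104) is a ratio of 1.42-fold. Psma3 ran the other way, with -0.54, -0.47 and -0.34 on terminal end bud arrays and -0.28, -0.25 and -0.12 on duct arrays. All 12 arrays were below stroma, and every terminal end bud array was below every duct array. The mean was -0.46 (SE 0.05, adjusted p = 1.64e-06) in terminal end buds and -0.22 (SE 0.05, adjusted p = 0.00264) in ducts, with a difference of -0.24 (SE 0.07, adjusted p = 0.02).

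The promoter windows of this pair are shown because both genes encode subunits of the same ring and their ratios had opposite signs in both structures. They are RefSeq windows of build GRCm38.p6, each 300 bases long and lying mostly before the start of the gene. Psma5 lies at chr3:108256676-108256975 and Psma3 at chr12:70974373-70974672, both on the plus strand. Capitals mark matches, on either strand, to any of the motifs searched: the antioxidant response element core TGACNNNGC that Nfe2l1 and Nfe2l2 bind, the interferon-stimulated response element core (GAAA, any bases in 2 positions, GAAA), the gamma-activated site TTCNNNGAA and the CCAAT box.
Psma5: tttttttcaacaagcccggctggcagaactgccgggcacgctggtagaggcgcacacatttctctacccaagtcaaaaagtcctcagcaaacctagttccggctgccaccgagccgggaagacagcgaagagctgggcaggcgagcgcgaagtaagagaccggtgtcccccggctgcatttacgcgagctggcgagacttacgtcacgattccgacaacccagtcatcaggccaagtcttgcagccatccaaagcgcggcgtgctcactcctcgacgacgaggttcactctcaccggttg
Psma3: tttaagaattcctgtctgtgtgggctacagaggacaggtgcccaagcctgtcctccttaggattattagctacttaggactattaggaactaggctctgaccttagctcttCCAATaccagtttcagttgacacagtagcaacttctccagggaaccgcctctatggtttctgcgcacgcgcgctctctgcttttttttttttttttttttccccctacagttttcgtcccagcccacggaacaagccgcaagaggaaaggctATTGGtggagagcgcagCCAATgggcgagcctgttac
Psma3 held 3 CCAAT matches and Psma5 had no match to these letters in this window. Among the 40 member genes with a window, 37.5% held a CCAAT match, against 37.4% of all 32851 windows. Here and below a member gene counts if any of its windows matches (43 windows in all), while the background counts single windows. An antioxidant response element match was in 15.0% of the member genes and 12.4% of all windows.

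Psma6, a further alpha subunit, was at -0.36 in terminal end buds (SE 0.05, adjusted p = 5.07e-05) and -0.22 in ducts (adjusted p = 0.00531). Psma7 was at 0.22 (adjusted p = 0.021) and 0.04, and this call ended when terminal end bud replicate 5 was left out (0.14, adjusted p = 0.0808). Psma1, Psma2 and Psma4 passed in no comparison, with ratios between -0.19 and 0.01 in terminal end buds and between -0.17 and 0.00 in ducts. Psma4 passed in terminal end buds, at -0.23 to -0.19, when any of duct replicates 4 and 5 or terminal end bud replicates 4 and 6 was left out, and in ducts without duct replicate 5 (-0.25). In ducts the call of Psma5 ended without duct replicate 1, 2, 4 or 5 (0.14 to 0.20, adjusted p = 0.0554 to 0.121).

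Of the 7 standard beta subunits, Psmb1 and Psmb6 rose and Psmb7 fell in terminal end buds. Psmb1, a structural beta subunit, had the highest ratio of the standard core, at 0.49, 0.84 and 1.13 on terminal end bud arrays and -0.19, 0.15 and 0.55 on duct arrays. The groups overlapped, since the highest duct array exceeded the lowest terminal end bud array. Its mean was 0.85 (SE 0.10, adjusted p = 4.65e-06) in terminal end buds and 0.20 (SE 0.10, adjusted p = 0.146) in ducts, a difference of 0.65 (SE 0.14, adjusted p = 0.00385).

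Of the 3 standard protease subunits, Psmb6 rose, Psmb7 fell and Psmb5 did not pass in terminal end buds, and Psmb7 alone of the 3 passed in ducts. Psmb6, the caspase-like site, had 0.21, 0.29 and 0.61 on terminal end bud arrays and -0.25, -0.07 and 0.03 on duct arrays. Every terminal end bud array was above every duct array. The mean was 0.36 (SE 0.06, adjusted p = 0.000215) in terminal end buds and -0.08 (SE 0.06, adjusted p = 0.365) in ducts, and the difference was 0.45 (SE 0.09, adjusted p = 0.00252). Psmb7, the trypsin-like site, had -0.58, -0.38 and -0.08 on terminal end bud arrays and -0.63, -0.35 and -0.04 on duct arrays. It was below stroma on all 12 arrays and the groups overlapped almost fully, with means of -0.36 and -0.35 (SE 0.08 each, adjusted p = 0.00141 and 0.00289). Psmb5, the chymotrypsin-like site, had -0.16, -0.02 and 0.22 on terminal end bud arrays and -0.33, -0.07 and 0.14 on duct arrays. It straddled stroma in both structures and passed in no comparison.

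The window of Psmb6, at chr11:70525107-70525406 on the plus strand, is shown because this protease subunit separated the structures on every array and its window matches TGACNNNGC, 9 bases before the start of the gene. The match, TGACGGAGC, is in capitals.
Psmb6: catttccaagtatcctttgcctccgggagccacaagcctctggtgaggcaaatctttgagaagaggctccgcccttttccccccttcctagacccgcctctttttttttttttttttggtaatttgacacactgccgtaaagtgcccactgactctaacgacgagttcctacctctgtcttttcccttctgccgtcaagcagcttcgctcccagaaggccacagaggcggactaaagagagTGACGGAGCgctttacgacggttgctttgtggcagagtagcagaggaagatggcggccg
A match is a description of the letters and not a binding site. The same motif was also found in the windows of Psmb5, Psmc6, Psmd9, Psmd12 and Psme4, whose ratios in terminal end buds ran from -0.40 (Psmc6 and Psmd12) to 0.11 (Psmd9).

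Psmb2, Psmb3 and Psmb4, the other structural beta subunits, did not pass in terminal end buds, at 0.09, -0.16 and 0.19. In ducts Psmb2 was at 0.20 (adjusted p = 0.048) and Psmb3 at -0.27 (adjusted p = 0.0309). Both calls were fragile. That of Psmb2 ended with 8 of the 12 arrays left out in turn, namely duct replicates 1 to 5 and terminal end bud replicates 4 to 6 (adjusted p = 0.0503 to 0.124), and that of Psmb3 with duct replicates 1, 2, 3, 4 or 6 (adjusted p = 0.061 to 0.111). Without terminal end bud replicate 5, which holds the lowest Psmb4 value (-0.58), Psmb4 passed in terminal end buds at 0.34 and Psmb3 at -0.25.

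Psmb8, the inducible counterpart of Psmb5, had the highest ratio of all members in both structures. It had a lowest, median and highest ratio of 0.59, 0.92 and 1.57 on terminal end bud arrays and of 0.08, 0.45 and 1.08 on duct arrays. All 12 arrays were above stroma and the structures overlapped. The mean was 1.02 in terminal end buds (SE 0.15, adjusted p = 5.12e-05), or 2.03-fold, and 0.51 in ducts (SE 0.15, adjusted p = 0.019), or 1.42-fold. The duct call ended without duct replicate 2 (0.40, adjusted p = 0.0737) or 5 (0.45, adjusted p = 0.0669). The difference of 0.51 (SE 0.21, adjusted p = 0.116) did not pass, and passed narrowly without duct replicate 2 (0.63, adjusted p = 0.05 after rounding). The other inducible subunits were much closer to stroma. Psmb9, the counterpart of Psmb6, had 0.02, 0.22 and 0.61 on terminal end bud arrays and -0.13, 0.17 and 0.62 on duct arrays. Its mean of 0.30 in terminal end buds passed (SE 0.09, adjusted p = 0.0159), but not without terminal end bud replicate 2 or 6 (0.25 and 0.24, adjusted p = 0.0585 and 0.0666), and its mean of 0.20 in ducts did not (adjusted p = 0.129). Psmb10, the counterpart of Psmb7, had -0.45, 0.00 and 0.49 on terminal end bud arrays and -0.13, 0.12 and 0.21 on duct arrays, and passed in neither.

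Leukocytes carry inducible subunits, so their markers are given beside Psmb8. Of 10 measured leukocyte markers, 4 were higher (Cd74 at 0.94, Cd14 at 0.80, Coro1a at 0.72 and Cd52 at 0.57) and 1 lower (Ptprc, the pan-leukocyte antigen, at -0.35) in terminal end buds. In ducts 2 were higher, Cd14 at 0.81 and Cd74 at 0.77, and 0 lower, where 1 was lower at an unadjusted p under 0.05 (limma). The mean ratio over the 10 markers was -0.07 to 0.79 on terminal end bud arrays and -0.27 to 0.39 on duct arrays. In both structures the array with the highest Psmb8 ratio, replicate 2, also had the highest marker mean. Terminal end bud replicate 6 and duct replicate 5 came next in Psmb8 (1.51 and 0.81) and next in the marker mean (0.57 and 0.31). The order of the other arrays did not follow throughout: terminal end bud replicate 1 had the lowest Psmb8 ratio of its group, 0.59, with a marker mean of 0.41, and duct replicate 6 had the lowest marker mean with Psmb8 at 0.52. The part of leukocytes in the Psmb8 ratios was not tested.

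Psmb8 and Psmb9 sit in the class II region of the major histocompatibility complex, in RefSeq gene order Psmb9, Tap1, Psmb8, Tap2, among the transporters that bring peptides to class I molecules. Tap1 was at 0.50 in terminal end buds (adjusted p = 4.96e-05) and 0.03 in ducts, and its difference of 0.47 passed (adjusted p = 0.00524). Tap2 was at 0.02 in terminal end buds and 0.31 in ducts (adjusted p = 0.027). The promoter windows of Psmb9 and Tap1, which point away from each other, share 275 bases, yet Psmb9 differed by 0.10 between the structures (adjusted p = 0.667). Whether Psmb9 and Tap1 differ from each other was not tested. The window of Psmb8, at chr17:34197945-34198244 on the plus strand, is shown as that of the highest member, with its gamma-activated site match TTCCCAGAA in capitals, 97 bases before the start.
Psmb8: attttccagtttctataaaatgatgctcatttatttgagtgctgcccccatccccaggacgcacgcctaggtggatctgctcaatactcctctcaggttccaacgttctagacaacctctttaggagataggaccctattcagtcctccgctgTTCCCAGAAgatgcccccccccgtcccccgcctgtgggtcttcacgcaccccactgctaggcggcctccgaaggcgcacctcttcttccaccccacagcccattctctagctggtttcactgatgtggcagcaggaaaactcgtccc
This motif was in 7.50% of member genes and 8.30% of all windows.

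Of the tissue-specific core subunits, Psma8, the alpha subunit of testis germ cells, had 0.06, 0.21 and 1.98 on terminal end bud arrays and -0.14, 0.03 and 0.10 on duct arrays. A single array, terminal end bud replicate 1, stood far above the others. The mean of 0.51 (SE 0.19, adjusted p = 0.0374) was 0.22 without that array, and the call ended without terminal end bud replicate 3 (adjusted p = 0.063). Psmb11, the thymus subunit, passed in no comparison, at -0.14 in terminal end buds and 0.10 in ducts.

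The base ATPases form a ring of distinct subunits, of which 5 were measured, and they split evenly in terminal end buds, with 2 higher and 2 lower. That is 80.0% of a small set, against 43.6% of all probes. Psmc3 was highest, at 0.42, 0.57 and 0.98 on terminal end bud arrays and 0.14, 0.38 and 0.53 on duct arrays. It was above stroma on all 12 arrays, with means of 0.61 (SE 0.07, adjusted p = 5.25e-06) and 0.37 (SE 0.07, adjusted p = 0.00114), and was the only base or lid probe to rise in ducts in this fit. Psmc5 had 0.16, 0.31 and 0.53 on terminal end bud arrays and -0.14, -0.02 and 0.28 on duct arrays, and its mean was 0.32 in terminal end buds (SE 0.07, adjusted p = 0.00131). Psmc1 was lowest, at -0.95, -0.32 and -0.13 on terminal end bud arrays and -0.20, -0.05 and 0.09 on duct arrays, with a mean of -0.44 (SE 0.09, adjusted p = 0.00121) in terminal end buds and -0.04 in ducts. Thus subunits of the same ring differed from stroma with opposite signs. Psmc6 was at -0.40 in terminal end buds (SE 0.11, adjusted p = 0.0105), at -0.82 on slides numbered to 193 and at -0.19 on slides from 196 (adjusted p = 0.179). Psmc4 did not pass at 0.22, and without terminal end bud replicate 4, which held -0.72 while the other 5 arrays held 0.32 to 0.50, it passed at 0.41 (adjusted p = 0.00659).

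Among the non-ATPase subunits of the base, Psmd4, a receptor for ubiquitin chains, fell in terminal end buds. It had -0.60, -0.45 and -0.04 on terminal end bud arrays and -0.24, -0.07 and 0.05 on duct arrays. The groups overlapped through a single terminal end bud array, replicate 1, at -0.04. The mean was -0.42 (SE 0.07, adjusted p = 0.000154) in terminal end buds and -0.09 in ducts. The large scaffold subunits Psmd1 and Psmd2 passed in no comparison, at -0.10 and -0.04 in terminal end buds and 0.05 and -0.10 in ducts.

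The lid, which removes ubiquitin from substrates, had 3 of 9 probes higher and 4 lower in terminal end buds. In either direction that is 77.8%, against 43.6% of all probes. Psmd11, a lid scaffold, was read by 2 probes that did not give the same answer. Probe 8964 had 0.44, 0.55 and 0.81 on terminal end bud arrays and -0.38, -0.10 and 0.27 on duct arrays, without overlap. Probe 1074 had -0.01, 0.04 and 0.18 on terminal end bud arrays and -0.01, 0.10 and 0.32 on duct arrays, and overlapped fully. The means in terminal end buds were 0.60 (SE 0.09, adjusted p = 5.65e-05) for probe 8964 and 0.06 (SE 0.05, adjusted p = 0.376) for probe 1074. Which probe reads the gene better cannot be told from the files, so the value of Psmd11 is uncertain. Psmd13 had -0.03, 0.29 and 0.61 on terminal end bud arrays and -0.24, -0.10 and 0.00 on duct arrays, and 5 of 6 terminal end bud arrays were above every duct array. Psmd13 rose by 0.32 (adjusted p = 0.00448) and Psmd3 by 0.31 (adjusted p = 0.0023) in terminal end buds.

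Psmd8, Psmd12, Psmd14 and Psmd6 were the lid probes that fell. Psmd8 was at -0.54 in terminal end buds (SE 0.09, adjusted p = 0.000194) and -0.65 in ducts (SE 0.09, adjusted p = 9.86e-05), the lowest value of any member in ducts. Psmd12 was at -0.40 and -0.43 (SE 0.07 each, adjusted p = 0.00017 and 0.000236). All 12 arrays were below stroma for both genes. Psmd14, the deubiquitinating enzyme of the lid, was at -0.28 in terminal end buds (adjusted p = 0.00279) and -0.18 in ducts (adjusted p = 0.0613, or 0.0375 when terminal end bud replicate 6 was left out). Psmd6 had -2.29, -0.44 and -0.21 on terminal end bud arrays and -0.36, -0.14 and 0.05 on duct arrays. The mean of -0.70 in terminal end buds (SE 0.20, adjusted p = 0.0109) rested in part on replicate 3 and was -0.38 without it. Psmd7, the partner of Psmd14, passed in no comparison, at 0.06 in terminal end buds and -0.14 in ducts.

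**Figure D3:**
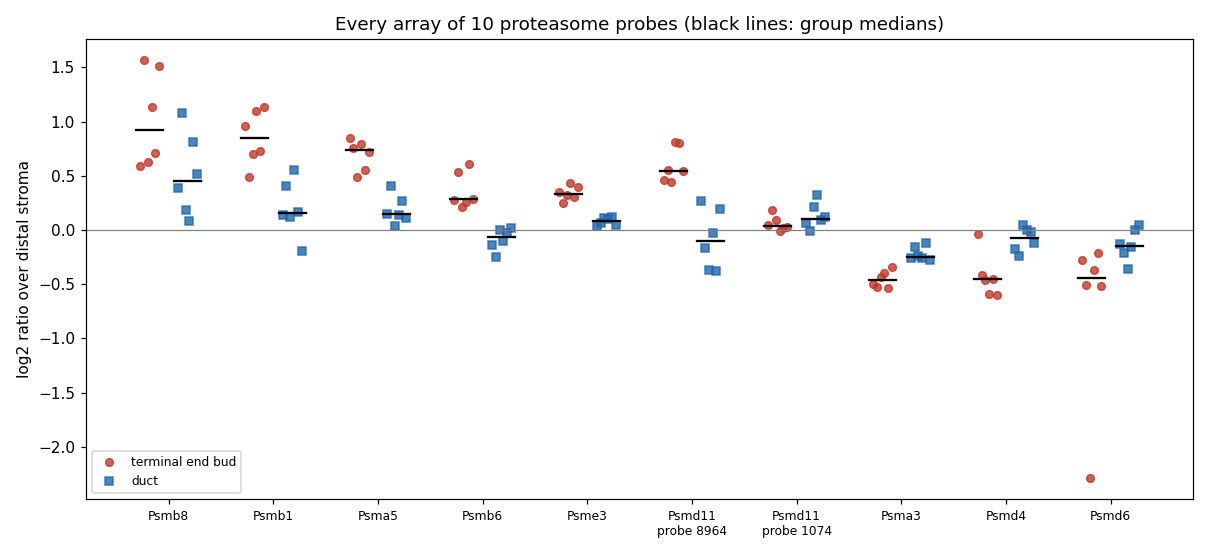
Log2 ratio over distal stroma on every array for 10 proteasome probes, with terminal end buds as red circles, ducts as blue squares and black lines for group medians. Psma5, Psmb6, Psme3, Psmd11 probe 8964 and Psma3 separate the structures without overlap, and the single Psmd6 point at -2.29 is terminal end bud replicate 3.

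Assembly chaperones had mean ratios between -0.06 and 0.27 in terminal end buds and between -0.05 and 0.24 in ducts. Psmd5, a chaperone of the base, was at 0.27 in terminal end buds (SE 0.05, adjusted p = 0.000517), the only chaperone of 6 to pass there. That is 16.7% of a small set, against 43.6% of all probes. None passed in ducts, against 28.2% of all probes, and 1 was higher and 0 lower at an unadjusted p under 0.05 (limma). Psmg3, the chaperone with the lowest mean in terminal end buds, had -0.22, -0.08 and 0.09 on terminal end bud arrays and -0.13, 0.00 and 0.07 on duct arrays, on both sides of stroma in each structure. Psmd5 had 0.19, 0.25 and 0.39 on terminal end bud arrays and -0.11, 0.08 and 0.22 on duct arrays. Psmg1, Psmg2, Psmd9 and Psmd10 had ratios between 0.04 and 0.21 in terminal end buds and between -0.05 and 0.24 in ducts. Psmg1 and Psmg2, which work as a pair on the alpha ring, both passed in terminal end buds without replicate 5 (0.26 and 0.27), and Psmg2 also without replicate 2 (0.27). Psmg1 passed in ducts without terminal end bud replicate 5 (0.24, adjusted p = 0.0463).

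The alternative activators moved apart. Psme1 and Psme2 form a mixed ring that opens the core and is induced by interferon. Psme1 had 0.39, 0.45 and 0.98 on terminal end bud arrays and 0.28, 0.37 and 0.47 on duct arrays. Psme2 had -0.30, -0.11 and -0.04 on terminal end bud arrays and -0.39, -0.26 and -0.09 on duct arrays. So Psme1 was above stroma and its partner below it on all 12 arrays. The mean of Psme1 was 0.59 (SE 0.07, adjusted p = 1.45e-05) in terminal end buds and 0.37 (SE 0.07, adjusted p = 0.00176) in ducts. The mean of Psme2 was -0.13 (SE 0.05, adjusted p = 0.0783) in terminal end buds and -0.25 (SE 0.05, adjusted p = 0.00297) in ducts. The window of Psme1, at chr14:55578244-55578543 on the plus strand, is shown because it holds a match to the interferon-stimulated response element core, on the minus strand and 9 bases after the start, in capitals.
Psme1: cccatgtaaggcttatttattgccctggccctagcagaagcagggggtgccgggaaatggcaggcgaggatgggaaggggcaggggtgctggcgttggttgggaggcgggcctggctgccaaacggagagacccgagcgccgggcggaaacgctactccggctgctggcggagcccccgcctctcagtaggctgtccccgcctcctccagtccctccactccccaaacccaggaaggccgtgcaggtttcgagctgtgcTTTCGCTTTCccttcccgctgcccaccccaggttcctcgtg
This motif was in 4 of the 40 member genes with a window and in 3.44% of all windows. Its other member genes were Psmb3, Psmd4 and Psmd9, at -0.16, -0.42 and 0.11 in terminal end buds.

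Psme3, which forms a ring of its own in the nucleus, had the tightest arrays of the activators, at 0.25, 0.34 and 0.43 on terminal end bud arrays and 0.04, 0.08 and 0.12 on duct arrays. The structures did not overlap. The mean was 0.34 (SE 0.04, adjusted p = 1.4e-05) in terminal end buds and 0.08 (SE 0.04, adjusted p = 0.206) in ducts. Psme4, a large nuclear activator, had -0.69, -0.28 and 0.12 on terminal end bud arrays and -0.45, -0.20 and 0.16 on duct arrays. Its mean of -0.29 in terminal end buds (adjusted p = 0.035) did not pass without terminal end bud replicate 1, 2, 4 or 6 (-0.31 to -0.21, adjusted p = 0.0558 to 0.133). The inhibitor Psmf1 had -0.14, 0.19 and 0.37 on terminal end bud arrays and -0.19, -0.11 and 0.06 on duct arrays and passed in no comparison, although without terminal end bud replicate 3 it passed in terminal end buds (0.22, adjusted p = 0.00943) and between the structures (0.30, adjusted p = 0.0207).

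The symbol rule also takes 2 genes that are not subunits. Psmc3ip, a recombination factor named after its binding to Psmc3, had -1.01, -0.75 and -0.34 on terminal end bud arrays and -0.59, -0.49 and -0.27 on duct arrays. It was below stroma on all 12 arrays, with means of -0.71 (SE 0.08, adjusted p = 6.76e-06) and -0.45 (SE 0.08, adjusted p = 0.000971). Psme3ip1, which binds Psme3, had 0.07, 0.18 and 0.29 on terminal end bud arrays and 0.10, 0.22 and 0.34 on duct arrays. Its means of 0.20 and 0.22 (adjusted p = 0.00407 and 0.00394) were alike in size.

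Compared directly, the 7 members above ducts were Psmd11 probe 8964 at 0.68 (SE 0.12, adjusted p = 0.00153), Psmb1 at 0.65, Psma5 at 0.51, Psmb6 at 0.45, Psmd13 at 0.43 (SE 0.11, adjusted p = 0.0146), Psmc5 at 0.30 (SE 0.10, adjusted p = 0.047) and Psme3 at 0.26 (SE 0.06, adjusted p = 0.00741). The 3 below ducts were Psmc1 at -0.39 (SE 0.13, adjusted p = 0.0467), Psmd4 at -0.34 (SE 0.10, adjusted p = 0.0267) and Psma3 at -0.24. Both core and regulatory subunits were on the higher and on the lower side. By particle, 3 of 14 core probes were higher and 1 lower, and 3 of 17 regulatory probes were higher and 2 lower. In either direction that is 28.6% and 29.4%, against 18.7% of all probes. The array values did not overlap for 5 members, 4 higher and 1 lower, which is 10.2% of the members and equals the 10.2% of all probes with that property. Over all probes 4.42% had terminal end buds above ducts in this way. Psme3 and Psma3 were among them although their differences are small, since their arrays lay close together.

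Several of these calls were near the threshold. That of Psmc1 ended without terminal end bud replicate 1, 2 or 5 or duct replicate 1, 3, 4, 5 or 6 (-0.40 to -0.29, adjusted p = 0.0698 to 0.0973). That of Psmc5 ended without terminal end bud replicate 1, 3, 4 or 6 or duct replicate 1, 2, 3 or 4 (0.25 to 0.30, adjusted p = 0.069 to 0.103). That of Psmd4 ended without terminal end bud replicate 4 or 6 or duct replicate 3, 4 or 5 (adjusted p = 0.0535 to 0.0639), and its difference was -0.01 on slides numbered to 193 and -0.50 on slides from 196. Psmd13 differed by 0.79 on the lower and 0.25 on the higher slide numbers. Some members became significant without 1 array: Psmc4 without terminal end bud replicate 4 (0.58, adjusted p = 0.012), Psmc6 without terminal end bud replicate 3 or 4 (-0.52 and -0.50), Psmd3 without terminal end bud replicate 3 or duct replicate 6 (0.33 and 0.36), Psmc3ip without terminal end bud replicate 3 (-0.33) and Psmd5 without duct replicate 2 (0.22). Under quantile normalization 7 members were higher and 0 lower, and with a common median absolute deviation 6 and 0, with 3 and 4 lower at an unadjusted p under 0.05 (limma). Shares over all probes under these scalings are not given.

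**Figure D4:**
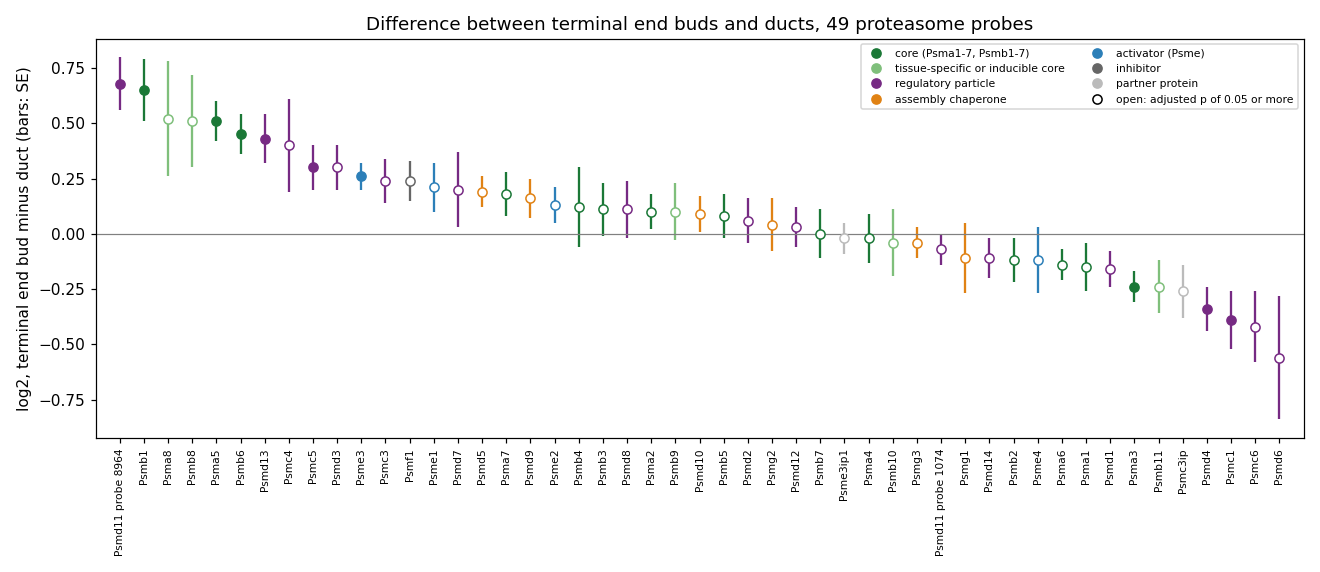
Difference in mean log2 ratio, terminal end bud minus duct, for all 49 proteasome probes from highest to lowest, with bars for the SE of the limma fit, colours for the role and open circles where the adjusted p was 0.05 or more. The 10 filled circles comprise 7 above 0 and 3 below it, core and regulatory subunits lie on both sides, and the probes of Psmd11 stand far apart at 0.68 and -0.07.

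On average, members did not vary together from array to array to any marked degree. After removing group means, the mean Pearson correlation over the 12 arrays was 0.03 over the 91 pairs of core probes, 0.08 over the 136 pairs of regulatory probes and 0.05 over the 238 pairs between the particles, against 0.00 over all pairs of probes. Single pairs went both ways. The extremes of the 1176 pairs of members were -0.86 (Psmb9 with Psmd8) and 0.87 (Psmd1 with Psmd2). Psmd12 was at 0.82 with Psmd1 and 0.81 with Psmd2. Pairs from different parts of the complex were as high. Psmd4 with Psma8 and Psmg1 with Psmc1 were at 0.85, Psmg2 with Psmc1 at 0.83 and Psmb5 with Psmd8 at 0.82. Psmb10 with Psmb4, both of the core, was also at 0.85. These correlations share arrays and are given as a description.

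Further genes of the pathway passed at about the background share. Of 47 further genes in lists of ubiquitin supply, shuttle factors, the unfoldase, transcription factors and class I antigen processing, 33 were measured. Of these, 8 rose and 8 fell in terminal end buds, 5 and 4 in ducts, and 3 and 5 in terminal end buds against ducts. In terminal end buds that is 24.2% in each direction, against 23.2% higher and 20.4% lower among all probes. Their median ratio was -0.07 in terminal end buds and 0.03 in ducts. Of the 13 measured proteasome-bound and shuttle factors, 2 rose and 2 fell in terminal end buds, or 30.8% against 43.6% of all probes. The shuttle receptors Ubqln2 at 0.77 and Rad23b at 0.36 rose (adjusted p = 4.13e-07 and 0.000912), and the deubiquitinase Uchl5 at -0.55 and the shuttle receptor Ubqln1 at -0.36 fell (adjusted p = 0.000298 and 0.00101). A further Ubqln1 probe did not pass, at -0.18. The core assembly factor Pomp, the regulator Usp14 and the small lid subunit Sem1 passed in no comparison, at -0.13, 0.04 and -0.11 in terminal end buds.

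All 5 transcription factors passed in terminal end buds, 3 higher and 2 lower, a small set beside 43.6% of all probes. Nfe2l1, which drives proteasome gene expression when the protease is inhibited, had -1.21, -0.81 and -0.37 on terminal end bud arrays and -0.33, -0.24 and -0.06 on duct arrays. All 12 arrays were below stroma and the structures did not overlap. The mean was -0.79 in terminal end buds (SE 0.10, adjusted p = 8.96e-06) and -0.22 in ducts (adjusted p = 0.103), a difference of -0.57 (adjusted p = 0.0085). Nfe2l2 was at -0.19 and -0.23 (adjusted p = 0.0199 and 0.00932). Stat3 was at 0.53 and 0.48 (adjusted p = 3.65e-05 and 0.00026), with a further probe at 0.49 and 0.75, Foxo3 at 0.54 and 0.40 (adjusted p = 0.00902 and 0.0631) and Nfyb, a CCAAT-binding subunit, at 0.36 and 0.15 (adjusted p = 0.000466 and 0.102). Of the unfoldase genes, Ufd1 was at -0.54 in terminal end buds and -0.19 in ducts (adjusted p = 8.15e-06 and 0.039), Ubxn1 at 0.28 and 0.33, and Vcp itself passed in neither, at -0.24 and 0.02.

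Of the 10 measured genes of class I antigen processing, 2 rose and 3 fell in terminal end buds, and 2 rose and 1 fell in ducts. Irf1, an interferon-responsive activator of Psmb9, was at 0.22 and 0.17 (adjusted p = 0.00675 and 0.037). The trimming peptidase Erap1 was at -0.61 in terminal end buds (adjusted p = 4.95e-05) and 0.04 in ducts, a difference of -0.65 (adjusted p = 0.00217). The chaperone Calr was at -0.39 in terminal end buds (adjusted p = 0.0036). The class I heavy chain H2-D1, whose probe could also read near-identical heavy chains, was at -0.27 and -0.31 (adjusted p = 0.0347 and 0.0277). Its terminal end bud arrays had a lowest, median and highest ratio of -0.86, -0.09 and 0.02. Its duct arrays had -0.37, -0.31 and -0.23, all below stroma. B2m, its light chain, did not pass at -0.34 and -0.21, with -1.34, 0.00 and 0.08 on terminal end bud arrays. Tap2, Tapbp, Pdia3 and Canx did not pass in terminal end buds, at 0.02, 0.14, 0.13 and -0.07. Thus inducible subunits, interferon-induced activators and class I genes went both ways in terminal end buds. Psmb8, Psmb9, Psme1, Tap1 and Irf1 passed above stroma, and Erap1, Calr and H2-D1 passed below it. Psmb10, Psme2, B2m, Tap2, Tapbp, Pdia3 and Canx did not pass. Most H2-D1 arrays of terminal end buds lay close to stroma, while those of ducts did not.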

How the data were processed

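Arrays with 2 colours measured 12 samples, 6 of terminal end buds and 6 of ducts, each against distal stroma. The authors deposited normalized ratios, taken here as log2 of Cy5 (epithelium) over Cy3 (stroma) per the labels. How the arrays were scanned, background-corrected and normalized, no label or header says. Array medians lay between 0.01 and 0.023 and the values were used as deposited. No intensities were used, so dim probes could not be set apart. No probe was filtered, all 49 members had values on all 12 arrays, and 129 other probes lacked a value. Probes were named by the platform annotation, and all 49 members matched RefSeq by gene number, with 0 symbols updated. Pathway genes with several probes were read from the first with most values.

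Group means and their difference were fitted over all 17589 probes with limma 3.58.1 in R 4.3.3 (lmFit, eBayes, two-sided, Benjamini-Hochberg, threshold 0.05). Tested on simulated data, terminal end bud against duct recovered 4% of changes of 0.25, 56% of 0.5 and 100% of 2, with 6 false calls, and against stroma 20%, 84% and 100%, with 8. The simulation changed 200 of 17589 probes, whereas 18.7% of probes passed between the structures here and 43.6% in terminal end buds against stroma. With so few changed probes the adjusted threshold is stricter, so these recoveries may understate those in the data. Small differences of members may still be missed. Members, lists and the naming rule (every member, array values for protease subunits, activators, role extremes and members called between the structures) were chosen with earlier results of these data known. Replicate numbers only name arrays. Alternatives covered scaling, variance models, array weights, slide numbers, a minimum size, probes of a gene and each array left out.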

Additional observations from a re-analysis of the deposited data

Results flagged for a closer look

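Single arrays stood far from the other 5 of their group for 5 of the 98 sets of 6 arrays (49 probes in each structure). Chance gives about 1 such set in 20. Psma8 was at 1.98 on terminal end bud replicate 1, while the other arrays held 0.06 to 0.47. Psmc4 was at -0.72 on terminal end bud replicate 4, while the others held 0.32 to 0.50. Psmd4 was at -0.04 on terminal end bud replicate 1, while the others held -0.60 to -0.42. Psmd6 was at -2.29 on terminal end bud replicate 3, while the others held -0.52 to -0.21. Psmd8 was at -1.13 on duct replicate 2, while the others held -0.68 to -0.45.

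The ratio over stroma differed between terminal end buds and ducts, by the test of the difference itself, for 10 probes. That is 20.4% of the members, close to the 18.7% of all probes. It was higher in terminal end buds by 0.68 for Psmd11 probe 8964, 0.65 for Psmb1, 0.51 for Psma5, 0.45 for Psmb6, 0.43 for Psmd13, 0.30 for Psmc5 and 0.26 for Psme3. The difference was -0.39 for Psmc1, -0.34 for Psmd4 and -0.24 for Psma3.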

How the results depend on the processing

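No paired analysis was possible because the labels give no replicate numbers. Requiring an absolute log2 difference of at least 0.5 left 7 members higher and 3 lower in terminal end buds against stroma, 1 and 1 in ducts against stroma, and 3 and 0 in terminal end buds against ducts. Against ducts, a common median absolute deviation gave 6 higher and 0 lower and quantile normalization 7 and 0, so every call was higher, against 70.0% in the fit reported. With centring, 30.8% of the duct calls were higher, against 42.9%. Slides numbered to 193 (2 arrays a structure) gave 0 higher and 3 lower in ducts (5 and 8 at an unadjusted p under 0.05, limma) and 3 and 0 between the structures (10 and 6). Slides from 196 gave 3 and 5 in ducts and 4 and 1 between the structures. The shares over all probes under these settings are not given, so the splits are not read as particular to the proteasome. What the slide numbers stand for is not stated. With each array left out in turn, terminal end buds had 15 to 18 higher and 11 to 13 lower, ducts 3 to 6 higher (3 without duct replicate 5) and 7 to 9 lower, and terminal end buds against ducts 6 to 8 higher and 1 to 5 lower. The 1 without duct replicate 3, 4 or 5 and the 5 without terminal end bud replicate 3 compare with 3. The median of the core probes ran from 0.00 to 0.03 in terminal end buds and from -0.10 to -0.03 in ducts. That of the regulatory probes ran from -0.10 (without terminal end bud replicate 4) to 0.00 (without terminal end bud replicate 5) in terminal end buds, against -0.04 with all arrays, and from -0.10 to -0.06 in ducts. With the mean of a gene's probes, Psmd11 probe 1074 took a difference of 0.31 (adjusted p = 0.0127), against -0.07 alone, by construction. Over all alternatives, 8 of 28 calls in terminal end buds, 1 of 14 in ducts and 0 of 10 between the structures passed every time. These alternatives include the minimum size of 0.5, which every smaller call fails by construction, and the fit on 2 arrays a structure. The counts therefore do not measure fragility alone. The causes of these changes were not tested.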
